A study of Mus musculus with 148 samples.

Results

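*Heph*, *Tmem28*, *Fam3a*, *Aff2*, *Fgf13*, *Mamld1* and *Dgkk* are 7 X-linked genes whose share of RNA from the *Xist*-expressing chromosome was lower after induction of an Xist RNA without its A-repeat. They were selected on that measurement from 258 genes with an allelic ratio in cells induced for 6 days, so their values in the XistΔA line are given as a description, with no test. All 7 are also among the 464 genes measured in a reciprocal line. Xist is the long non-coding RNA that coats one X chromosome of XX cells and silences its genes in cis. Its A-repeat binds SPEN, which brings in the NCoR and HDAC3 corepressors, and removing the repeat abolishes most silencing. A separate stretch of Xist, the B/C-repeat or PID region, binds hnRNPK and brings in Polycomb complexes, which place H2AK119ub and H3K27me3 on the chromosome.

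All measurements are chromatin-associated RNA-seq (ChrRNA-seq) of *M. m. domesticus* 129S × *M. m. castaneus* XX mouse embryonic stem cells (mESCs), called iXist-ChrX, in which doxycycline (Dox) switches on the endogenous *Xist* of one allele through a TetOn promoter. Lines with unmodified Xist (WT, clone B2), XistΔA and XistΔPID express Xist from the 129S allele. Each of these 3 lines has 3 libraries without Dox (NoDox) and 3 libraries after 6 days of Dox in differentiating conditions, that is, without LIF, plus 1 NoDox and 1 Dox library kept in ES medium for the same 6 days. The reciprocal line C7H8, with inducible *Xist* on the Cast allele, has 2 NoDox libraries and 2 libraries after 24 h of Dox, all in ES medium. In the iXist-ChrX parent the X chromosomes had recombined, so the 258 genes lie between the centromere and the *Xist* region. For XistΔA and XistΔPID the study lists 1 line each and names no separate clones. The p-values of the 6-day series therefore measure a spread between libraries of a line. Effects of the deletion and of the clone cannot be told apart. The study describes the 6-day libraries as biological replicates. No source used here describes the C7H8 libraries in that way, so p-values in C7H8 measure a spread between libraries that may be technical.

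The value for each gene and library is the deposited allelic ratio, the reads from the allele that carries inducible *Xist* (Xi) divided by those from both alleles (Xi and Xa). A ratio of 0.5 means equal RNA from both alleles and 0 means no Xi RNA. Silencing, z, is the change in mean ratio on Dox, Dox minus NoDox, so a more negative z is stronger silencing. The read depth behind the ratios is unknown, because the tables hold ratios and no counts. *Xist* itself checks the labels of the inducible allele. Its ratio after 6 days of Dox averaged 0.999 in WT, 0.995 in XistΔA and 0.999 in XistΔPID. It rose from 0.791 to 0.942 in C7H8. Without Dox the *Xist* ratio was already 0.988 in WT and 0.994 in XistΔPID, and 0.878 ± 0.121 (SD, n = 3) in XistΔA, so *Xist* RNA came mostly from the inducible allele in every line.

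In WT cells all 7 genes were silenced after 6 days of differentiation, and 4 of them to a mean ratio of 0.0274 or lower. *Heph*, which encodes the iron-exporting ferroxidase hephaestin, had ratios of 0.372, 0.313 and 0.418 without Dox and of 0, 0.00794 and 0 with Dox. *Tmem28*, a transmembrane protein gene, stood at 0.400, 0.400 and 0.392 without Dox and was listed at 0 in all 3 Dox libraries. No Dox library of either gene came near a NoDox library. *Fgf13*, an intracellular member of the fibroblast growth factor family that acts on voltage-gated sodium channels, fell from 0.495 ± 0.021 to 0.0274 ± 0.00124 (SD, n = 3). *Dgkk*, a diacylglycerol kinase, fell from 0.519 ± 0.077 to 0.0263 ± 0.0298 (SD, n = 3). The z of *Dgkk*, −0.493, was the strongest among the 7 genes and ranked 27 of 258.

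More Xi RNA was left in WT cells for the remaining genes. *Fam3a*, of a family of cytokine-like proteins, fell from 0.532 ± 0.0826 to 0.0681 ± 0.0109 (SD, n = 3). *Aff2*, the mouse homologue of the fragile X E gene and a nuclear protein of the AF4/FMR2 family, had Dox ratios of 0.192, 0.0897 and 0.0749, against 0.572, 0.511 and 0.572 without Dox. *Mamld1*, a mastermind-like nuclear protein gene with a role in male genital development, kept the most Xi RNA. Its ratios were 0.364, 0.500 and 0.467 without Dox and 0.188, 0.270 and 0.172 with Dox. The *Mamld1* z of −0.234 ranked 245 of 258, which places it among the genes least silenced by full-length Xist, although its Dox libraries were all below its NoDox libraries.

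In limma, with 1 fit over all 24 libraries, the WT ratio fell in 7 of 7 genes, against 97.7% of the 258 genes, so the call itself does not set these genes apart. The adjusted p-values ran from 3.41e-11 for *Fgf13* to 0.00275 for *Mamld1*, whose difference was −0.234 with a 95% confidence interval from −0.371 to −0.0958. The median z was −0.433 over the 7 genes and −0.408 over all genes. On a logit scale *Mamld1* was no longer called (adjusted p = 0.0991).

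**Figure D1:**
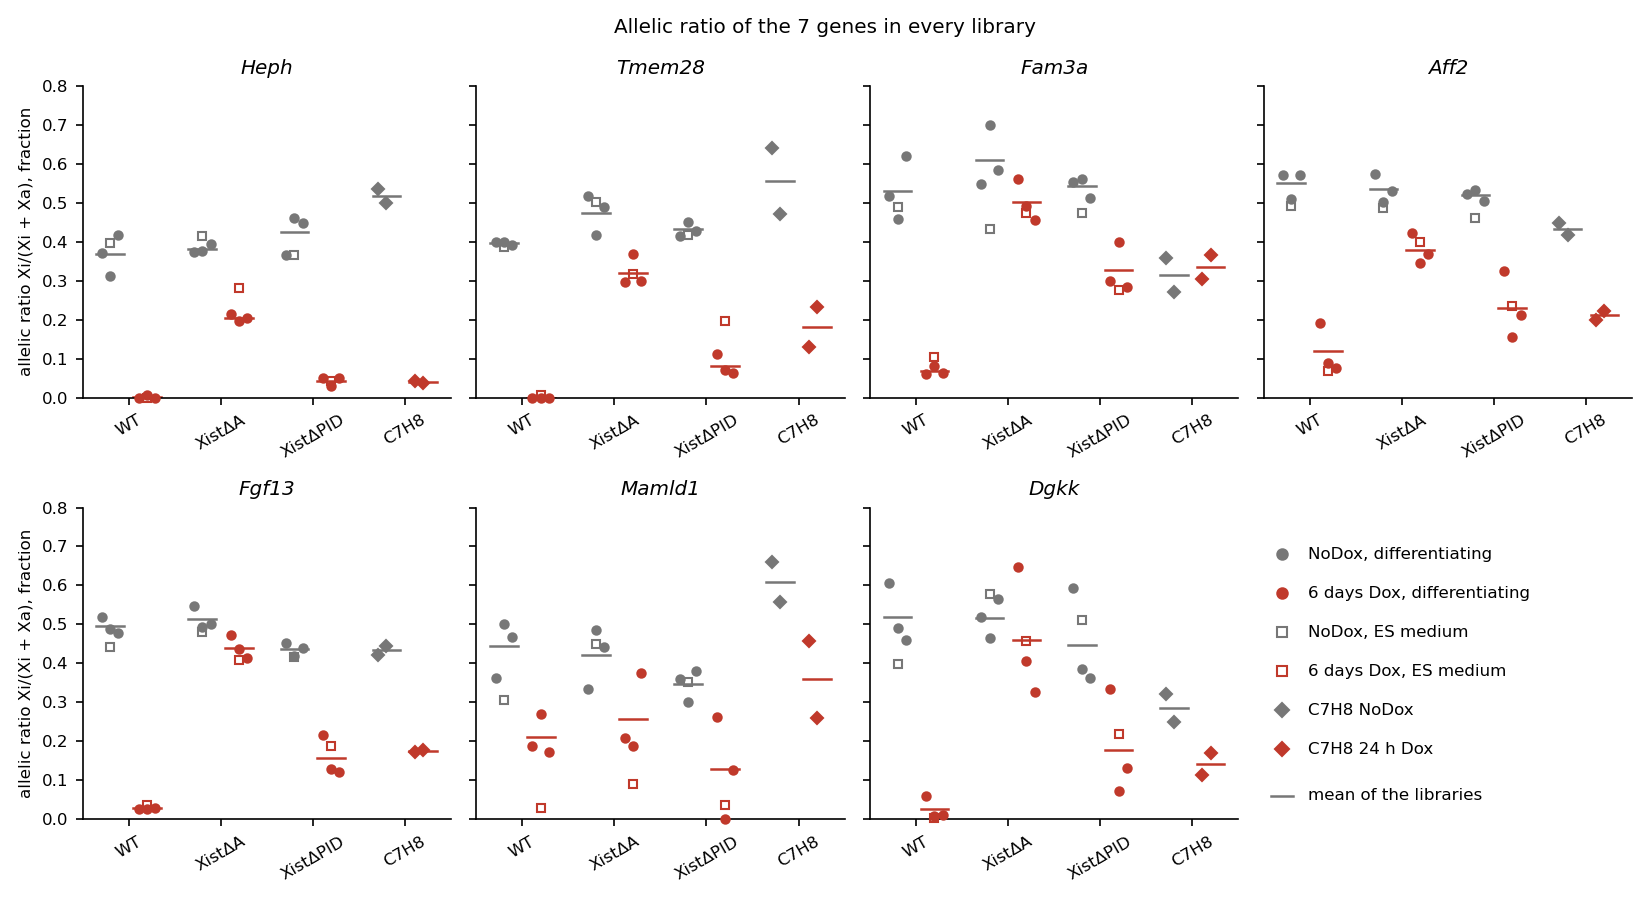
Allelic ratio, as a fraction, of each of the 7 genes in every library of the WT, XistΔA, XistΔPID and C7H8 lines. Grey symbols are NoDox and red symbols Dox libraries, circles are differentiating cells, open squares ES medium, diamonds C7H8, and bars are group means without the ES medium pairs of the first 3 lines. *Tmem28* is at 0 in the 3 WT Dox libraries of differentiating cells, and its mean Dox ratio is 0.321 in XistΔA and 0.0818 in XistΔPID.

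In the XistΔA line, induction lowered the ratio of the 7 genes only in part. *Heph* had the lowest z of all 258 genes, with ratios of 0.375, 0.375 and 0.395 without Dox and 0.215, 0.196 and 0.204 with Dox. *Tmem28* stood at 0.516, 0.418 and 0.491 without Dox and at 0.296, 0.368 and 0.299 with Dox. For both genes the groups did not overlap, and the Dox ratio stayed far above the WT values. *Aff2* went from 0.575, 0.502 and 0.531 to 0.422, 0.347 and 0.369. *Fgf13* went from 0.547, 0.494 and 0.500 to 0.472, 0.436 and 0.414. These also did not overlap, and the gap for *Fgf13* was narrow.

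The NoDox and Dox libraries of the other 3 genes overlapped in XistΔA. *Mamld1* stood at 0.333, 0.486 and 0.442 without Dox and at 0.209, 0.188 and 0.375 with Dox, the last of these above the lowest NoDox library. *Fam3a* stood at 0.547, 0.699 and 0.586 without Dox and at 0.560, 0.492 and 0.457 with Dox. *Dgkk* was the most scattered, with 0.518, 0.464 and 0.566 without Dox and 0.648, 0.406 and 0.326 with Dox. One of its Dox libraries was thus the highest of the 6, and its z of −0.0562 becomes 0.0358 when replicate 3 is left out. It is −0.149 without replicate 1. The z of *Fam3a*, −0.108, is −0.168 without replicate 1 and −0.0580 without replicate 2, and that of *Mamld1*, −0.163, is −0.0955 without replicate 2. Since the ratios come from bulk cells, fewer silencing cells and weaker silencing in each cell cannot be told apart.

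By z in XistΔA the order was *Heph* (−0.177), *Mamld1* (−0.163), *Aff2* (−0.157), *Tmem28* (−0.154), *Fam3a* (−0.108), *Fgf13* (−0.0732) and *Dgkk* (−0.0562), at ranks 1, 2, 3, 4, 11, 16 and 23 of 258. Taken per Dox library against the NoDox mean, the values of neighbours in this order overlapped throughout. The selection carried no limit, and 16 other genes were at or below the z of *Dgkk*. *Prrg3* (−0.144) and *Igsf1* (−0.144) came next after *Tmem28*, and are named here for their rank after the values were seen. Just past *Dgkk* stood *2610018G03Rik* (−0.0520). A z below −0.05 was found for 28 genes (10.9%), and 3 Dox libraries all below the 3 NoDox libraries for 10.5%, against 4 of the 7 genes. From these counts nothing is read, as the same contrast chose the genes. Over all genes the median z in XistΔA was −0.00642.

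As a share of the z in WT cells, what was left in XistΔA varied widely among the 7 genes. It was 69.8% for *Mamld1*, 48.4% for *Heph*, 38.8% for *Tmem28*, 36.2% for *Aff2*, 23.2% for *Fam3a*, 15.7% for *Fgf13* and 11.4% for *Dgkk*, with a median of 1.93% over all genes. Since the XistΔA z chose the 7 genes, nothing is read from their place against that median. The share of *Mamld1* is also taken of the weakest WT z among the 7 genes, −0.234. The shares of *Mamld1*, *Fam3a* and *Dgkk* depend on single replicates, since the z in XistΔA is −0.0955 for *Mamld1* and −0.0580 for *Fam3a* without replicate 2, and 0.0358 for *Dgkk* without replicate 3.

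**Figure D2:**
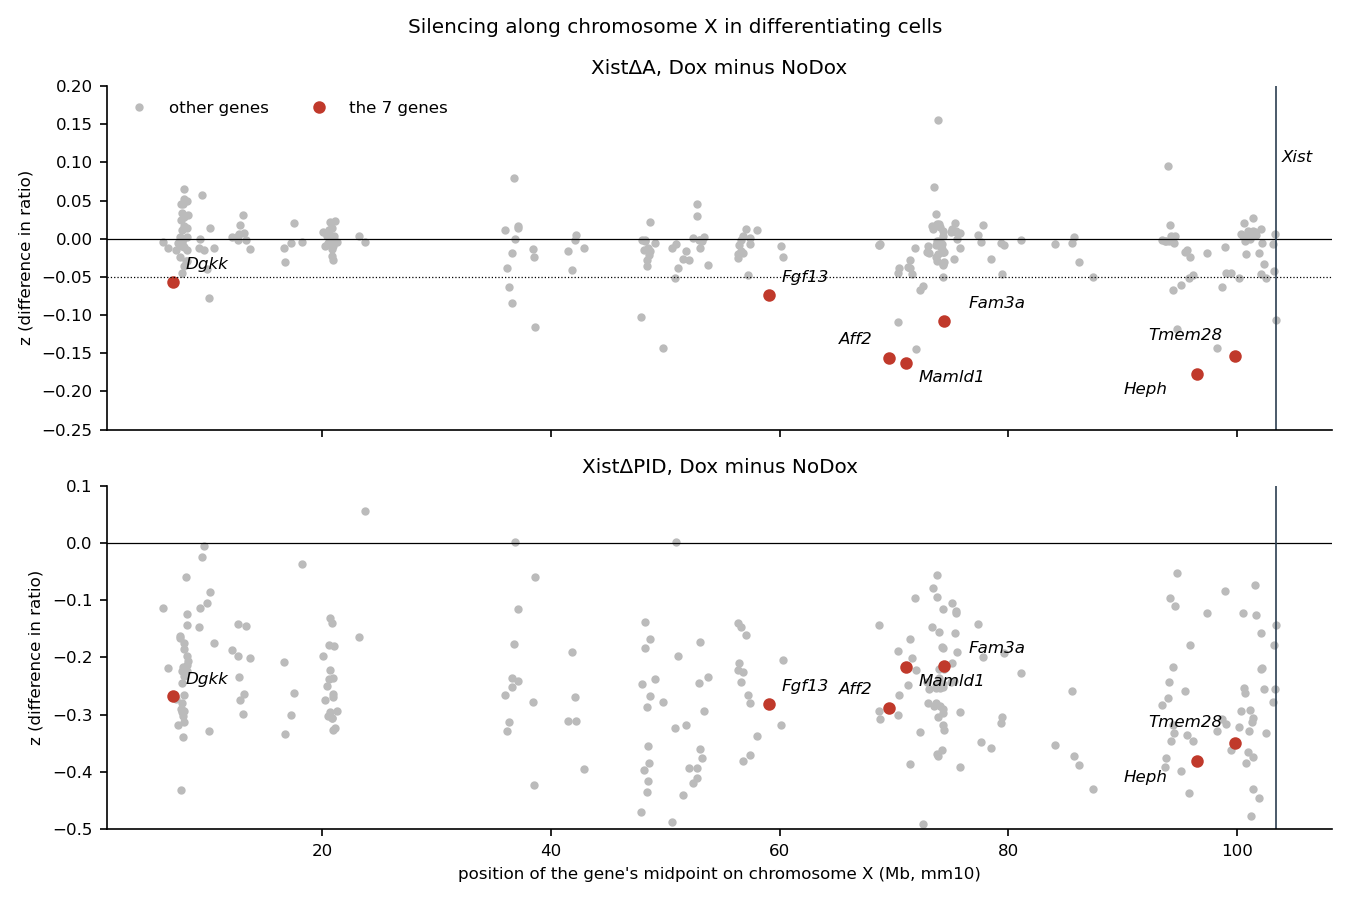
z of every gene (points) against the position of its midpoint on chromosome X in Mb, for XistΔA above and XistΔPID below, in differentiating cells. The 7 genes are red and labelled, the vertical line marks *Xist* and the dotted line z = −0.05. In XistΔA the 7 genes, chosen on this contrast, lie between −0.177 and −0.0562. Most other genes lie near 0, but 16 others are at or below the z of *Dgkk*.

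In the XistΔPID line all 7 genes were still silenced, to different extents. *Heph* went from 0.365, 0.461 and 0.448 to 0.0513, 0.0299 and 0.0503, and *Tmem28* from 0.416, 0.452 and 0.429 to 0.111, 0.0698 and 0.0645. Both remained strongly silenced, with Dox libraries all above those of WT. *Fam3a* kept far more Xi RNA, at 0.300, 0.400 and 0.284 with Dox against 0.554, 0.562 and 0.511 without. *Fgf13* stood at 0.217, 0.129 and 0.122 with Dox against 0.453, 0.420 and 0.439 without. In each of these 4 genes the Dox and NoDox libraries were well apart. *Aff2* fell from 0.520 ± 0.0143 to 0.231 ± 0.0852 (SD, n = 3), with Dox replicate 1 the highest at 0.324. *Mamld1* and *Dgkk* varied most between their Dox libraries, at 0.262, 0 and 0.125 and at 0.333, 0.0725 and 0.130. Their NoDox libraries, in the same replicate order, stood at 0.359, 0.300 and 0.379 and at 0.594, 0.385 and 0.361. Dox replicate 1 had the highest ratio for all of the 7 genes but *Fam3a*. The same held in XistΔA for all but *Tmem28* and *Mamld1*.

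The XistΔPID ratio fell in 7 of 7 genes, against 94.6% of all genes. The median z of the 7 genes, −0.281, lay beside −0.259 for all genes, and by rank *Heph* (28 of 258) and *Tmem28* (43 of 258) were the most silenced. The adjusted p-values from limma ran from 1.52e-09 for *Heph* to 0.00650 for *Dgkk*. Single replicates decided 2 of these calls, as *Mamld1* had an adjusted p of 0.0545 without replicate 3 and *Dgkk* one of 0.0741 without replicate 2.

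A direct test of the difference in z between XistΔPID and WT found weaker silencing in the XistΔPID line in 3 of the 7 genes, against 70.5% of all genes. *Fam3a* differed by 0.249 (SE 0.0634, adjusted p = 0.00306), *Fgf13* by 0.186 (SE 0.0336, adjusted p = 0.000233) and *Aff2* by 0.144 (SE 0.0555, adjusted p = 0.0310). The XistΔPID Dox libraries of *Fam3a* and *Fgf13* were all above the WT Dox libraries, whereas those of *Aff2* overlapped. The *Aff2* call was lost without replicate 3 (0.113, adjusted p = 0.273) and with only the compared groups in the fit (adjusted p = 0.0503).

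For the other 4 genes the difference in z did not pass the test on the ratio scale. It was −0.0159 for *Heph*, with a 95% interval from −0.0915 to 0.0598 (adjusted p = 0.701), and 0.0472 for *Tmem28*, from −0.0251 to 0.119 (adjusted p = 0.215). *Mamld1* differed by 0.0163, with a wide interval from −0.179 to 0.211 (adjusted p = 0.877), and *Dgkk* by 0.225, from −0.0264 to 0.476 (adjusted p = 0.0980). Without replicate 1, *Dgkk* was called (0.195, adjusted p = 0.0145). It was also called with a replicate block in the fit, as given in the last section. The scale matters where WT ratios are near 0. On the logit scale, with ratios held between 0.01 and 0.99, *Heph* (adjusted p = 0.000105), *Tmem28* (adjusted p = 1.07e-06) and *Dgkk* (adjusted p = 0.00644) were also called as silenced less in XistΔPID. All 3 WT Dox ratios of *Heph* and of *Tmem28* lie below 0.01 and were set to that value, so the size and p of their logit differences depend on the value chosen. Put as levels, the mean *Heph* ratio with Dox was 0.00265 in WT and 0.0438 in XistΔPID without overlap, and its NoDox mean was 0.368 in WT and 0.425 in XistΔPID.

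Without Dox, a difference in allelic ratio between XistΔPID and WT was called by limma for 0 of the 7 genes, against 0.775% or 2 of 258 genes. At an unadjusted p under 0.05 there were 17 genes, of which 2 belong to the 7, *Heph* with a difference of 0.0571 and *Fgf13* with −0.0575. Both have an adjusted p of 0.703. The NoDox means of the 7 genes in WT ran from 0.368 for *Heph* to 0.552 for *Aff2*. Those of *Tmem28* (0.397), *Mamld1* (0.443) and *Fgf13* (0.495) were also below 0.5, though replicate 2 of *Mamld1* stood at 0.5. A difference from 0.5 was not tested.

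Set side by side, the mean Dox ratio rose in the order WT, XistΔPID, XistΔA for 6 of the 7 genes, against 95.7% of all genes. For *Heph*, *Tmem28*, *Fam3a* and *Fgf13* no library overlapped between neighbouring lines in that order, which makes 4 of 7 against 81.8% of all genes. Both counts use the XistΔA values that chose the genes, and nothing is read from them. For *Aff2* the WT and XistΔPID libraries overlapped, and for *Dgkk* those of XistΔPID and XistΔA. *Mamld1* had another order, with means of 0.129 in XistΔPID, 0.210 in WT and 0.257 in XistΔA, and its libraries overlapped between all 3 lines.

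The ES medium pairs, with 1 library per group and so no test, gave lower ratios with Dox for all 7 genes in WT and XistΔPID and for 6 of 7 in XistΔA. In WT cells z ran from −0.425 for *Aff2* to −0.277 for *Mamld1*, and the *Heph* ratio went from 0.396 to 0. In XistΔPID it ran from −0.326 for *Heph* to −0.197 for *Fam3a*. In XistΔA a z below −0.05 was seen for 6 of the 7 genes and for 17.4% of all genes, again the contrast of the selection. *Mamld1* had the lowest z of all 258 genes there, going from 0.449 to 0.0909, and *Tmem28* went from 0.503 to 0.317. *Fam3a* was higher with Dox, at 0.433 without and 0.474 with it. Beside the differentiating cells, the XistΔA z in ES medium was −0.358 against −0.163 for *Mamld1*, −0.0854 against −0.157 for *Aff2* and −0.121 against −0.0562 for *Dgkk*. It was −0.134 against −0.177 for *Heph*, −0.186 against −0.154 for *Tmem28* and −0.0718 against −0.0732 for *Fgf13*. In WT cells, too, *Mamld1* had a lower Dox ratio in ES medium, 0.0286, than in any differentiating library.

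The reciprocal C7H8 line asks how the same genes respond when Xist is expressed from the Cast chromosome. Its 24 h of induction and ES medium differ from the 6-day series, so the values are given side by side and no difference between the lines was tested. *Heph* had the lowest z of all 464 genes, −0.477, with ratios of 0.534 and 0.500 without Dox and 0.0435 and 0.0370 with Dox. *Tmem28* ranked 8 of 464, going from 0.640 and 0.472 to 0.129 and 0.233. Among the 7 genes these had the strongest responses at 24 h. *Fgf13* went from 0.421 and 0.445 to 0.171 and 0.178, and *Aff2* from 0.448 and 0.416 to 0.200 and 0.223. *Dgkk* went from 0.322 and 0.250 to 0.113 and 0.171. In *Mamld1*, at 0.661 and 0.557 without Dox, the Dox libraries were apart from each other at 0.458 and 0.261. The groups of *Fam3a* overlapped, with 0.359 and 0.271 without Dox and 0.304 and 0.366 with Dox.

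In the limma fit of the C7H8 table the ratio fell in 5 of the 7 genes, against 78% of all 464 genes. *Heph* (adjusted p = 0.00226), *Fgf13* (adjusted p = 0.00226) and *Aff2* (adjusted p = 0.00327) kept their calls when any single library was left out. *Tmem28* (adjusted p = 0.0226) and *Dgkk* (adjusted p = 0.0382) each lost theirs without NoDox replicate 1, without Dox replicate 1 or without Dox replicate 2. *Mamld1* was not called (−0.249, 95% interval −0.523 to 0.0246, adjusted p = 0.0777), although without Dox replicate 1 it was (adjusted p = 0.0431). *Fam3a* had a difference of 0.0202, with an interval from −0.114 to 0.155 (adjusted p = 0.696). The median z was −0.249 over the 7 genes and −0.162 over all genes of the table.

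**Figure D3:**
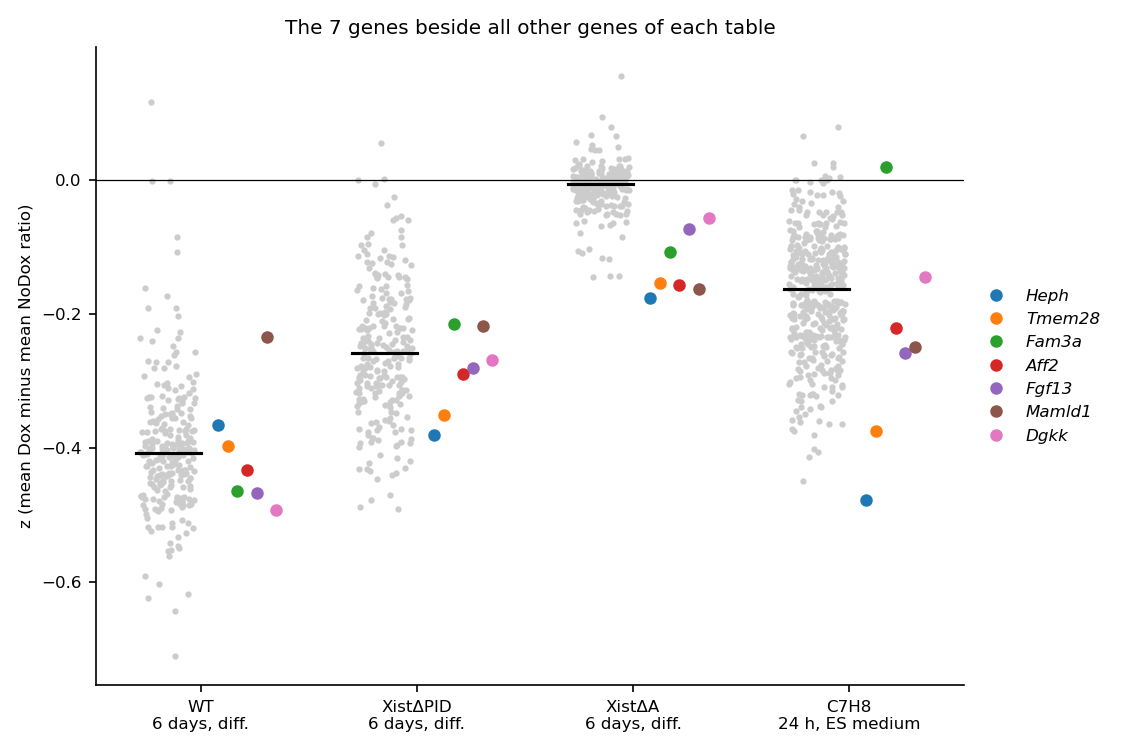
z (mean Dox minus mean NoDox ratio) of the 7 genes, as coloured points, beside all other genes of the same table, as grey points with the median of all genes as a bar. In XistΔA *Heph* is lowest at −0.177, in C7H8 *Heph* is lowest at −0.477 and *Fam3a* lies at 0.0202, and in WT *Mamld1* is the least silenced of the 7 at −0.234.

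The 7 genes had low expression, as did most genes with a low z in XistΔA. The deposited RPKM was 0.510 for *Aff2*, 0.645 for *Mamld1*, 0.678 for *Dgkk*, 0.892 for *Heph*, 4.86 for *Fgf13*, 4.92 for *Tmem28* and 5.24 for *Fam3a*. All 7 fell in the lowest of 3 equal groups of genes by RPKM (86 genes, up to 8.91), against a median of 17.2 over all genes. That group had a median z of −0.0198 in XistΔA and −0.439 in WT, beside −0.00642 and −0.408 for all genes. Of the 28 genes with a z below −0.05 in XistΔA, 22 fell in it, and without the 7 genes 15 of 21. Its ratios were also noisier, with a median residual SD between libraries of 0.0469, beside 0.0326 in the middle and 0.0239 in the highest group. Among the 7 genes this SD ranged from 0.0295 for *Fgf13* to 0.0850 for *Mamld1* and 0.110 for *Dgkk*, ranks 242 and 251 of 258, and *Heph* (0.0312) and *Tmem28* (0.0296) were below the median of all genes (0.0330). The part of expression level in the XistΔA values was not tested.

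The genes did not share a position. In mm10 they lie on chromosome X at 6873484 to 6948363 (*Dgkk*), 59062146 to 59166088 (*Fgf13*, minus strand), 69360331 to 69868037 (*Aff2*), 71050256 to 71154717 (*Mamld1*), 74384720 to 74393139 (*Fam3a*, minus strand), 96455436 to 96574484 (*Heph*) and 99821069 to 99846345 (*Tmem28*). Their distance to *Xist* is 3.64 Mb for *Tmem28*, 6.96 Mb for *Heph*, 29.1 Mb for *Fam3a*, 32.4 Mb for *Mamld1*, 33.9 Mb for *Aff2*, 44.4 Mb for *Fgf13* and 96.6 Mb for *Dgkk*. For *Fgf13* the deposited length of 523428 bases exceeds the listed span of 103943 bases, so its RPKM may rest on a longer gene model than the coordinates.

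For the 14 nearest measured genes, 1 on each side of each gene, z in XistΔA lay between −0.0509 and 0.0110, with 1 gene below −0.05. Their median was −0.0178, beside −0.00642 for all genes. A comparison with the 7 genes themselves is not made, since these were selected on this z. *G6pdx*, the glucose-6-phosphate dehydrogenase gene 16.3 kb from *Fam3a*, had a z of −0.0172, and *Plxna3* on the other side 0.00984. *Ikbkg*, with a z of −0.0310, is not among the 14. Its midpoint lies past that of *G6pdx*, although it may begin nearer to *Fam3a*. *Mtm1*, the myotubularin gene 56.0 kb from *Mamld1*, had −0.0367. *Eda*, the ectodysplasin gene next to *Tmem28*, was the one below −0.05 at −0.0509, and *Msn* next to *Heph* stood at −0.0480. By limma, 14 of the 14 neighbours fell in WT and 14 of 14 in XistΔPID, near the 97.7% and 94.6% of all genes. In XistΔPID 13 of the 14 were silenced less than in WT, all but *Pja1* (adjusted p = 0.908), against 70.5% of all genes.

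Over the 82 other genes within 1 Mb of the 7, the median z in XistΔA was −0.00963, beside −0.00642 for all genes, and 5 genes were below −0.05. Within 0.5 Mb there were 29 genes with a median of −0.0173, and within 2 Mb 121 genes with −0.00692. Of the 82 genes, 82 fell in WT, 80 in XistΔPID, and 60 were silenced less in XistΔPID than in WT, near the 97.7%, 94.6% and 70.5% of all genes. Of 7 X-linked markers of fibroblasts, which serve as feeders, 3 are among the 258 genes of the 6-day series. In XistΔA the z was −0.0227 for *Timp1*, −0.0193 for *Fhl1* and −0.0782 for *Srpx*, at RPKM values of 21.2, 23.8 and 0.0466. In C7H8 *Col4a5* and *Col4a6* were also measured, with a z of −0.149 and −0.360. The part of these markers in the results was not tested.

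Genes with a pattern close to the mean of the 7 were *2610018G03Rik*, *Eda*, *Cfp*, the properdin gene, and *Ids*, the iduronate sulfatase gene. Likeness was the root mean square difference over 8 mean ratios, those of the 3 lines in differentiating cells and of XistΔA in ES medium, each without and with Dox. It was 0.0340, 0.0417, 0.0448 and 0.0457 for these 4 genes. The 7 genes themselves lay between 0.0387 for *Fgf13* and 0.121 for *Mamld1*, so most of them were farther from their own mean than these others. The z of these 4 genes in XistΔA ranged from −0.0520 to −0.0285.

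RefSeq (GRCm38.p6) promoter entries were matched for 6 of the 7 genes, 10 promoters in all, *Heph* being the gene without one. *Heph* has the same RefSeq and deposited gene start but no promoter entry. Among the 10 promoters, the annotated start equals the deposited gene start only for *Aff2*, *Mamld1* and 1 of the 4 *Fgf13* promoters. For that reason the 250 bases before these starts are shown. They are written 5′ to 3′ on the gene's strand with each CG in capitals, from chrX:69360081-69360330 (*Aff2*, plus), chrX:71050006-71050255 (*Mamld1*, plus) and chrX:59166089-59166338 (*Fgf13*, minus).
Aff2: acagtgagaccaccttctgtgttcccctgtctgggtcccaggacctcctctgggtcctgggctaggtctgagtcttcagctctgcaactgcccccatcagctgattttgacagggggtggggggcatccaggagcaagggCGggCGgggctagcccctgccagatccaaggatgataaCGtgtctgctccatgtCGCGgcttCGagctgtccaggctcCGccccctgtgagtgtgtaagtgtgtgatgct
Mamld1: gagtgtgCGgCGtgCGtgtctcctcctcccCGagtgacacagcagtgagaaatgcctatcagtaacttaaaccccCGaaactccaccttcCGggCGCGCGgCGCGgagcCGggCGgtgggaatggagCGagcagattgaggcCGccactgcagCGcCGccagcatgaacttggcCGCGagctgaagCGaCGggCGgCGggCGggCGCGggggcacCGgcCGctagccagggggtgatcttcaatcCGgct
Fgf13: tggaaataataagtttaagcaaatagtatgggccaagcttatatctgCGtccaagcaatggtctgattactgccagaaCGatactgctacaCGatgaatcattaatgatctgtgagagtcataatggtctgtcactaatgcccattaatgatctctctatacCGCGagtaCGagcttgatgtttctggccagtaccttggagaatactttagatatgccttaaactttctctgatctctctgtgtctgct
The *Aff2* sequence holds 7 CG, that of *Mamld1* 29 and that of *Fgf13* 6, while the other 3 *Fgf13* promoters hold 2, 33 and 31. In the 262 promoters of genes of the 6-day table the median is 11 (quartiles 6 and 18). Of motifs searched on both strands from 250 bases before to 50 after each start, TATAAA was found in 1 of the 10 promoters, that at the deposited start of *Fgf13*, though not within the bases shown, against 8.78% of the table's promoters and 13.6% of all promoters. AAGATGGC, the core of the YY1 consensus, was found in 1 of the 10, that of *Tmem28*, against 6.11% and 2.75%. These letters do not overlap each other. A match describes the sequence and no binding was measured at it here.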

How the data were processed

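ChrRNA-seq libraries of the 6-day iXist-ChrX series (24 libraries) and of C7H8 (4 libraries) were used, of 148 samples in the series. Per the labels and methods, the authors removed rRNA reads with Bowtie2 2.3.2, aligned to N-masked mm10 with STAR 2.4.2a, assigned reads to alleles (SNPsplit) and made strand-specific gene counts (featureCounts). The authors deposited the allelic ratio as a fraction from 0 to 1, where a gene had 10 or more reads over SNPs. The deposited RPKM is 1 value per gene, and the library it comes from is not given in the sources used here. Groups follow titles and characteristics; the growth protocol in the labels gives 24 h of Dox for all samples, and the titles were used for the 6-day libraries. Depth is unknown, and fewer reads over SNPs give a less precise ratio.

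Untransformed ratios entered limma 3.58.1 (R 4.3.3), with Benjamini-Hochberg adjustment over 258 or 464 genes and a threshold of 0.05; the 6-day and C7H8 tables were fitted separately. The fit was tested on simulated data. Other steps used Python 3.11.15, numpy 2.4.6, pandas 2.3.3 and matplotlib 3.10.9. Named genes are the 7 genes, their nearest neighbours, the 5 genes closest in mean ratios, of which 1 is not reported here, *Xist* and fibroblast markers; *Prrg3* and *Igsf1* were named after their values were seen. Alternatives were a logit scale, only the compared groups, a replicate block, leaving out replicates, NoDox ratios from 0.2 to 0.8, trended robust moderation, other z limits and other distances. The 7 genes and the lists were chosen with earlier results of these data known.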

Additional observations from a re-analysis of the deposited data

Results flagged for a closer look

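Silencing differed between XistΔPID and WT cells, by the limma test of the difference in z, for *Fam3a* (0.249), *Fgf13* (0.186) and *Aff2* (0.144), each with 3 NoDox and 3 Dox libraries per line, as it did for 70.5% of all genes. The *Aff2* call was lost without replicate 3 (adjusted p = 0.273) and with only the compared groups in the fit (adjusted p = 0.0503). *Fam3a* moved in opposite directions in XistΔA cells of the 2 culture media, with a z of 0.041 in ES medium, from 1 library per group, and of −0.108 in differentiating cells, where 1 of its 3 Dox libraries was not below every NoDox library. The difference between the media was not tested.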

How the results depend on the processing

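The counts of the 7 genes called lower in WT and in XistΔPID stayed within 1.5 times their value under every alternative run. The number silenced less in XistΔPID than in WT went from 3 to 6 on the logit scale, where the sign of the *Heph* difference turned (1.24, adjusted p = 0.000105, with all WT Dox ratios held at 0.01), and over all genes from 182 to 224. In XistΔA the z of *Dgkk* turned to 0.0358 without replicate 3, and was −0.149 without replicate 1. Genes differing between XistΔPID and WT without Dox, 2 of 258, became 0 on the logit scale, 0 with only the compared groups, 1 among genes with NoDox ratios from 0.2 to 0.8, 1 with trended robust moderation, and 0 to 2 with 1 replicate left out. In C7H8, 5 called genes became 3 to 5 with 1 library left out. Leaving out a replicate number in both C7H8 groups could not be fitted, as no residual degrees of freedom remain. The causes were not tested, apart from fewer libraries where some were left out.

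Same-numbered libraries did not deviate together in all pairs: 5 of 9 correlations were over 0.1, from −0.0279 to 0.408, 5 NoDox libraries correlated best with their own number, and C7H8 gave −0.009. With a replicate block, the genes silenced less in XistΔPID were 4 of 7 (*Dgkk* added, adjusted p = 0.0183) and 194 of 258, those called in C7H8 4 of 7 (*Mamld1* added, adjusted p = 0.0288, *Tmem28* and *Dgkk* lost, adjusted p = 0.0720 and 0.104), and those differing without Dox 3 of 258. No other call for the 7 genes changed. Depth is unknown and may limit the ratios of weakly expressed genes most.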
